A study of Mus musculus with 4 samples.

Results

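Ribosome biogenesis was examined as 37 genes whose protein products work in the nucleolus or belong to RNA polymerase I, chosen by gene symbol. All 37 were found by symbol among the 54532 genes of the deposited table, 22046 of which are protein coding, and all 37 passed the low-count filters used here. The libraries are polyA RNA-seq of macrophages grown from mouse bone marrow for 6 days in medium conditioned by L929 cells, a fibroblast line whose medium supplies macrophage growth factor. Mice were C57BL/6, aged 6 to 8 weeks, and each combination of genotype and treatment has 1 library. By their titles, 2 libraries came from Fbxw7-floxed mice (FBXW7f/f, title WT) and 2 from mice that also carry Cre under the control of the lysozyme M gene (LysM-cre FBXW7f/f, title KO). The floxed allele is thus common to all 4, and no group without it or with Cre alone was analysed here. For each title, 1 library was untreated and 1 came from cells given lipopolysaccharide (LPS), the outer-membrane component of Gram-negative bacteria that activates Toll-like receptor 4, for 3 h. Whether animals were pooled is not stated.

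The titles and the genotype entries of the labels disagree. The entries give FBXW7f/f for both untreated libraries and LysM-cre FBXW7f/f for both LPS libraries, and under them genotype and treatment cannot be told apart. Groups below follow the titles, which match the series' design text. Fbxw7 itself, the targeted gene, had 395 counts in the untreated WT library, 477 in untreated KO, 170 in WT with LPS and 191 in KO with LPS, and a gene-level count cannot show a deleted exon. Lyz1, a lysozyme gene next to the Cre-carrying Lyz2, had 63, 910, 569 and 43 counts in the same order, so that it was low in untreated WT and in KO with LPS. Lyz1, like the proliferation genes below, pairs each untreated library with the LPS library of the other title. Whether the titles of the 2 LPS libraries were exchanged was not tested, and all titles are used as names of libraries. An exchange would turn the sign of the KO-against-WT ratios after LPS and of what rests on them. It would also change the LPS ratios within a title, their difference and the spread behind the additive model, but not the fit with treatment alone. Lyz2 had 336304, 240923, 170314 and 298057 counts. All 7 macrophage markers were detected in every library, at a summed 14861 to 25315 CPM (counts scaled to library size, with library sizes adjusted by the trimmed mean of M values, TMM). Summed markers of neutrophils reached at most 220 CPM and those of T cells at most 62.0 CPM, most of it Cd4. B-cell markers reached 31.6 CPM, nearly all Cd79b, and the remaining 4 marker lists stayed at or under 13.2 CPM. The 10 LPS response genes examined (among them Il6, Tnf and Cxcl10) rose in 10 of 10 cases, with a median of 6.98 on the log2 scale. Total counts were 17610372 to 23835940 per library.

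A ribosome is built from ribosomal RNAs and ribosomal proteins in the nucleolus. RNA polymerase I transcribes the large precursor rRNA, small nucleolar ribonucleoproteins (snoRNPs) of the box C/D and box H/ACA classes methylate and pseudouridylate it, the small-subunit processome cuts and folds the part that becomes the 40S subunit, and another set of factors matures the 60S subunit. These genes are classical targets of the transcription factor MYC, and their output is tied to cell growth. FBXW7 is the substrate-recognition subunit of an SCF ubiquitin ligase whose known substrates include MYC. PolyA RNA-seq measures the mRNAs of the factors and says nothing of rRNA synthesis.

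Across both titles, the mRNAs of 4 of the 37 factors rose with LPS and that of 1 fell. Wdr43, Ltv1, Nop58 and Noc4l rose by 1.27 to 1.56 on the log2 scale, and Polr1a, the catalytic subunit of RNA polymerase I, fell by 0.99. The genes that rose encode 3 factors of the 40S subunit and a box C/D core protein. These values come from an additive model of title and treatment over all 4 libraries (edgeR's quasi-likelihood test, Benjamini-Hochberg adjustment over 13989 genes). Of all genes tested, 9.35% rose and 5.14% fell, against 10.8% and 2.70% of the members, so the share of members called stood near the background. Before adjustment 8 members (21.6%) had p under 0.05, beside 33.0% of all genes. A fit with treatment alone, which makes no use of the titles, called 7 members that rose (18.9%, beside 16.7% of all genes) and 1 that fell (2.70% beside 15.3%). The median effect over the 37 members was 0.30, beside -0.05 over all genes, and 28 of 37 lay above that all-gene median. When libraries were scaled by their total counts instead of TMM, the median of all genes moved by -0.57 and the member median became -0.28, so that the direction of the member median depends on the scaling. With library totals all 6 role medians were below 0, from -0.02 for the box C/D proteins to -0.88 for the polymerase group. The spread behind the test rests on 1 residual degree of freedom, and no group has a second library.

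**Figure D1:**
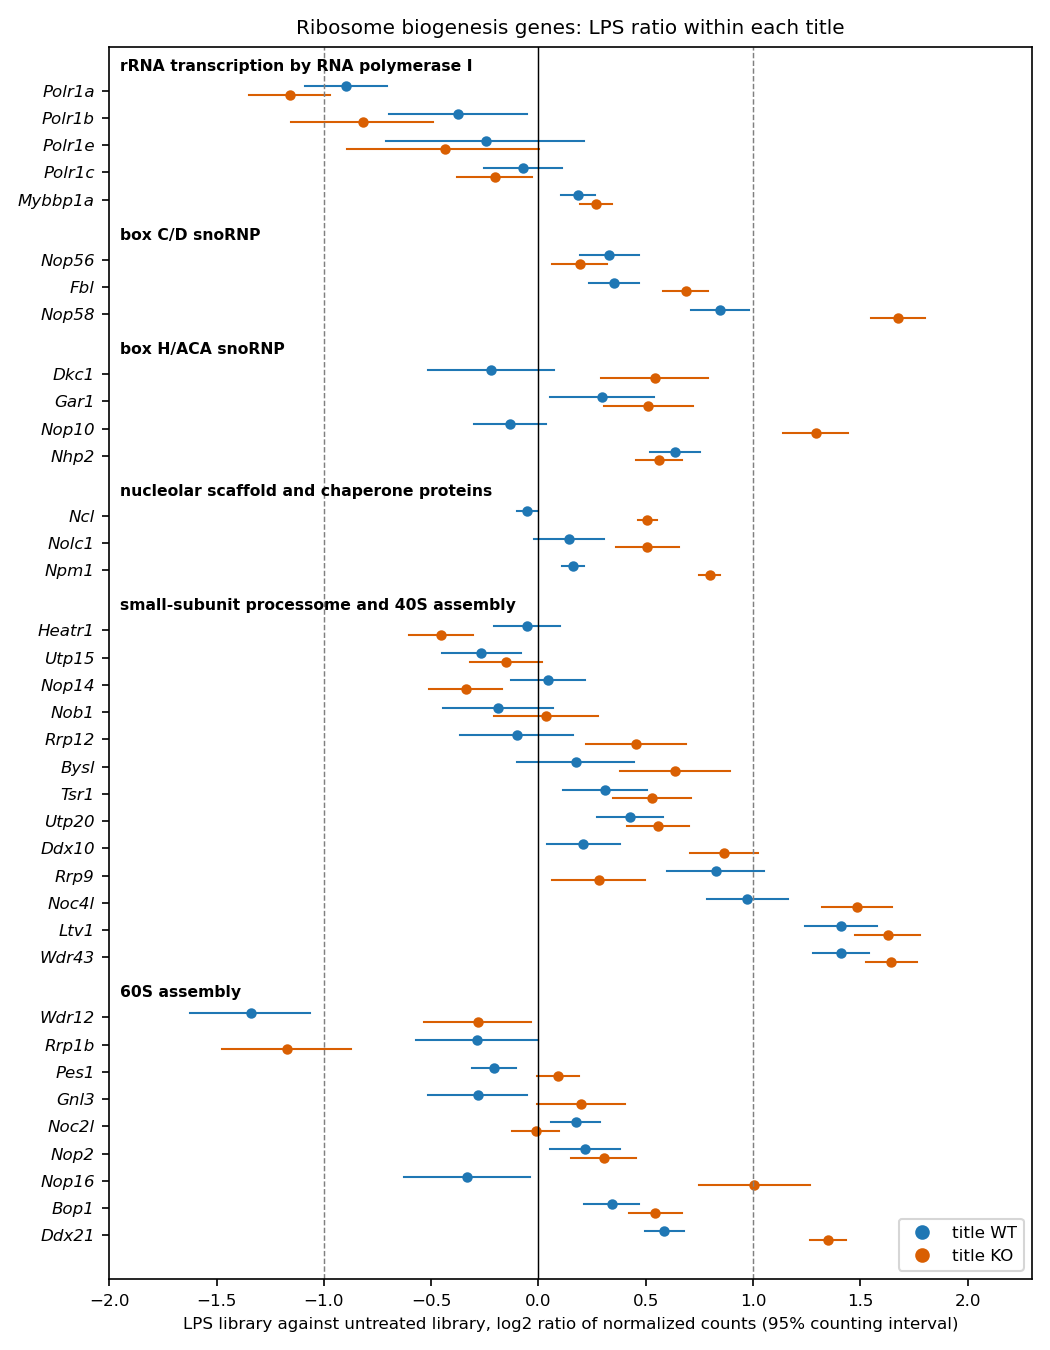
Log2 ratio of LPS to untreated for each of the 37 genes, in the pair of libraries titled WT and in the pair titled KO, grouped by role; horizontal lines are exact 95% binomial intervals of the counts, which cover counting error only. Wdr43, Ltv1, Noc4l and Nop58 lie to the right in both pairs and Polr1a to the left in both.

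The 5 members that passed the test are shown with the sequence just before their start, since these are the genes on which the LPS comparison turns. Each line gives the 150 bases that end just before the gene's first base in the deposited table, read 5′ to 3′ on the gene's strand from the RefSeq promoter table (GRCm38.p6). Capitals mark a GC box (GGGCGG or its reverse complement CCGCCC) or, in Polr1a, an NF-Y box (CCAAT or ATTGG).
Polr1a: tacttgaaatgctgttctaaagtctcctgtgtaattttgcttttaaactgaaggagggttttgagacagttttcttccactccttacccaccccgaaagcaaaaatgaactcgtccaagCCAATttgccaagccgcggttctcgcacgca
Nop58: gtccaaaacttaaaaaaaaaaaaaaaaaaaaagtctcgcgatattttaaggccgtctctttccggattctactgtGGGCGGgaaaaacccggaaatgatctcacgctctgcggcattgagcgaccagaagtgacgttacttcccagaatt
Wdr43: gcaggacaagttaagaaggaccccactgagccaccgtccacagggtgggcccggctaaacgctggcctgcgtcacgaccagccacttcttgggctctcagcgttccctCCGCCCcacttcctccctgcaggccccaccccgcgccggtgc
Noc4l: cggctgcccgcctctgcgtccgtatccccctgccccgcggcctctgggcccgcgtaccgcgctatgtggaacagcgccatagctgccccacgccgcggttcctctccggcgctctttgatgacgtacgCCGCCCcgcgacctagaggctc
Ltv1: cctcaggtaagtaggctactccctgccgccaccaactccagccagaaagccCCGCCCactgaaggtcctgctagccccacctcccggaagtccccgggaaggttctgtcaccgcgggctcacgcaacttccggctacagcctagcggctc
Polr1a is at chr6:71908903-71909052 on the plus strand, Nop58 at chr1:59684821-59684970 on the plus strand and Wdr43 at chr17:71616065-71616214 on the plus strand. Noc4l is at chr5:110653418-110653567 on the minus strand and Ltv1 at chr10:13193169-13193318 on the minus strand. The 4 genes that rose have 1 GC box each in these windows, and the stretch shown for Polr1a has none. Of the 37 members, 33 had an entry in the promoter table. In the 250 bases before the start, 22 of these 33 (66.7%) held a GC box on either strand, beside 32.7% of all 32851 promoters in the table. Among the 22 were Polr1b, Wdr12 and Rrp1b, whose levels were lower with LPS in both pairs. The GC box was thus not limited to genes that rose. The E-box CACGTG, the palindromic site bound by MYC with MAX, occurred in 1 of 33 (3.03%, Nop2) beside 6.02% of all promoters. CCAAT occurred in 9 of 33 (27.3%) beside 33.8%. These are letter matches in a fixed window and no binding was measured.

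The RNA polymerase I group had the lowest median effect of LPS among the 6 roles, -0.31 under TMM, with 1 of 5 past the test. Polr1a (chr6:71909053-71984935 in mm10, the build of all gene positions here), the largest subunit, had 771 counts in untreated WT, 1106 in untreated KO, 323 in WT with LPS and 293 in KO with LPS. In CPM these were 35.0, 39.99, 18.8 and 17.9, so both LPS libraries lay below both untreated ones. The level was 1.86-fold lower with LPS in the WT pair (95% interval of the counts 1.63 to 2.12) and 2.23-fold lower in the KO pair (1.96 to 2.55). The common effect was -0.99 ± 0.22 (SE, edgeR adjusted p = 0.0467), just inside the threshold of 0.05, and it did not pass with DESeq2 or on log2 FPKM. Polr1b, which forms the active centre together with Polr1a, stood at 9.89, 11.2, 7.63 and 6.36 CPM in the same order of libraries. Its effect of -0.56 ± 0.33 did not pass (edgeR adjusted p = 0.293). Polr1c, a subunit shared with RNA polymerase III, was nearly level at 26.4, 29.1, 25.1 and 25.3 CPM. Polr1e, a subunit of the polymerase's dimerisation module, stood at 4.63 and 5.13 CPM untreated and at 3.90 and 3.79 CPM with LPS. All 4 polymerase subunits thus had both LPS libraries under both untreated libraries by CPM, an order that 38.1% of all genes shared. Of these differences 3 did not pass the test. The counting interval of the LPS ratio included 1 for Polr1e in both pairs (0.610 to 1.16 and 0.539 to 1.003). It also did for Polr1c in the WT pair (0.837 to 1.08). Mybbp1a, a nucleolar protein that binds the polymerase machinery and MYB, was the exception in this group at 127, 132, 144 and 158 CPM, without passing.

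The polymerase's other subunits and its transcription factors formed a wider list of 19 genes, all tested. None of the 19 passed in either direction in the edgeR fit, and their median effect was 0.21. Rrn3, which recruits the polymerase to the rDNA promoter, had 570, 803, 537 and 583 counts, with an effect of 0.32 ± 0.21 (edgeR adjusted p = 0.328). Ubtf, the rDNA-bound architectural factor, had 3175, 4169, 1693 and 1936 counts and an effect of -0.41 ± 0.22 (edgeR adjusted p = 0.251).

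The snoRNP proteins had median effects of 0.55 for the 3 box C/D proteins and 0.53 for the 4 box H/ACA proteins under TMM (-0.02 and -0.05 with library totals). Nop58 was the member of these classes that passed the test. Nop58 (chr1:59684971-59719044), a core protein of every box C/D snoRNP, had 766, 775, 1071 and 1463 counts in the 4 libraries in the order used above. Its normalized levels were 34.7, 28.0, 62.4 and 89.5 CPM, with both LPS libraries above both untreated ones. The ratio was 1.80 (1.63 to 1.97) in the WT pair and 3.19 (2.93 to 3.49) in the KO pair, and the common effect 1.30 ± 0.28 (edgeR adjusted p = 0.0451). The call was lost with limma on log2(FPKM + 1), at 1.08, and with library totals, at 0.72. Its partner Nop56 reached 40.1, 45.6, 50.4 and 52.1 CPM, an effect of 0.30 ± 0.20 that did not pass. Fbl, fibrillarin, the methyltransferase of the box C/D particle, stood at 54.8, 54.9, 69.9 and 88.4 CPM, with an effect of 0.55 ± 0.22 (edgeR adjusted p = 0.152). These 3 core proteins of the particle thus had higher TMM-scaled levels in both LPS libraries than in both untreated ones, by unequal amounts.

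Nop58 and Wdr43 also hold box C/D snoRNA genes within their bounds, the RNA class that Nop58 protein binds. In the deposited table, 7 of the 37 members (18.9%) enclosed at least 1 annotated snoRNA gene on their strand, beside 201 of 11119 measured protein-coding genes (1.81%). These were Nop56 with 5, Nop58 with 4, Ncl, Wdr43 and Gnl3 with 3 each, Tsr1 with 2 and Dkc1 with 1. The following 3 of these snoRNA genes are shown, from the 2 hosts whose mRNA rose, since their loci encode both a ribosome factor and the guide RNAs of rRNA methylation. Sequences are from GENCODE M21 (GRCm38), 5′ to 3′ in DNA letters, with the letters TGATG of box C and CTGA of box D in capitals.
Snord70: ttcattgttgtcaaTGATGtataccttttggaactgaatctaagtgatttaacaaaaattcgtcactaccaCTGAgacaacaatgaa
Snord11: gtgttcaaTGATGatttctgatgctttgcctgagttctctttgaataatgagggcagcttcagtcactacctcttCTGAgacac
Snord92: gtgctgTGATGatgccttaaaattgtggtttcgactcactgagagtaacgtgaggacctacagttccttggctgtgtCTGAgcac
Snord70 lies at chr1:59691934-59692020 and Snord11 at chr1:59704790-59704873, both in Nop58, and Snord92 at chr17:71631281-71631365 in Wdr43, all on the plus strand. Of the 21 snoRNA genes in members, 13 had 0 counts in all 4 libraries and the highest had 33 counts in total. PolyA libraries hold few such short RNAs without a tail, so the levels of the snoRNAs could not be compared.

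Among the proteins of the box H/ACA particles, which carry out pseudouridylation and also stabilise telomerase RNA, the 4 members were unalike. Nhp2 had 49.8 and 55.6 CPM untreated and 77.3 and 82.2 CPM with LPS, an effect of 0.63 ± 0.20 that passed before but not after adjustment (edgeR adjusted p = 0.099). Gar1, a core protein of the particle, had 13.2 and 15.4 CPM untreated and 16.1 and 22.0 CPM with LPS. Dkc1, the pseudouridine synthase, stood at 11.1, 10.6, 9.49 and 15.4 CPM. Nop10 (chr2:112261926-112263269), the smallest protein of the particle, had 695, 600, 494 and 868 counts. Its 31.5, 21.7, 28.8 and 53.1 CPM place untreated KO lowest and KO with LPS highest. LPS went with a ratio of 0.913 (0.812 to 1.03) in the WT pair and 2.45 (2.20 to 2.72) in the KO pair.

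The nucleolar scaffold proteins include the most abundant member per length, Npm1. In FPKM, the authors' values scaled by gene length, Npm1 had 110, 92.6, 126 and 171. The library sizes behind these FPKM follow DESeq2's size factors and not the total counts, so FPKM is no check on scaling by library totals. Ncl had 38.6, 32.8, 38.1 and 49.7 FPKM, and Nolc1 6.66, 6.49, 7.54 and 9.83. Npm1, nucleophosmin, had the highest level of all members in every library, while Ncl, nucleolin, had the highest counts. None of these 3 passed the test for LPS, and the effects were 0.51 ± 0.29 for Npm1, 0.26 ± 0.29 for Ncl and 0.36 ± 0.22 for Nolc1. Ncl went in opposite directions in the 2 pairs, with CPM of 401 untreated and 386 with LPS in WT against 347 untreated and 493 with LPS in KO. The ratios were 0.963 (0.932 to 0.994) and 1.42 (1.38 to 1.47), both intervals excluding 1 on counting error alone.

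**Figure D2:**
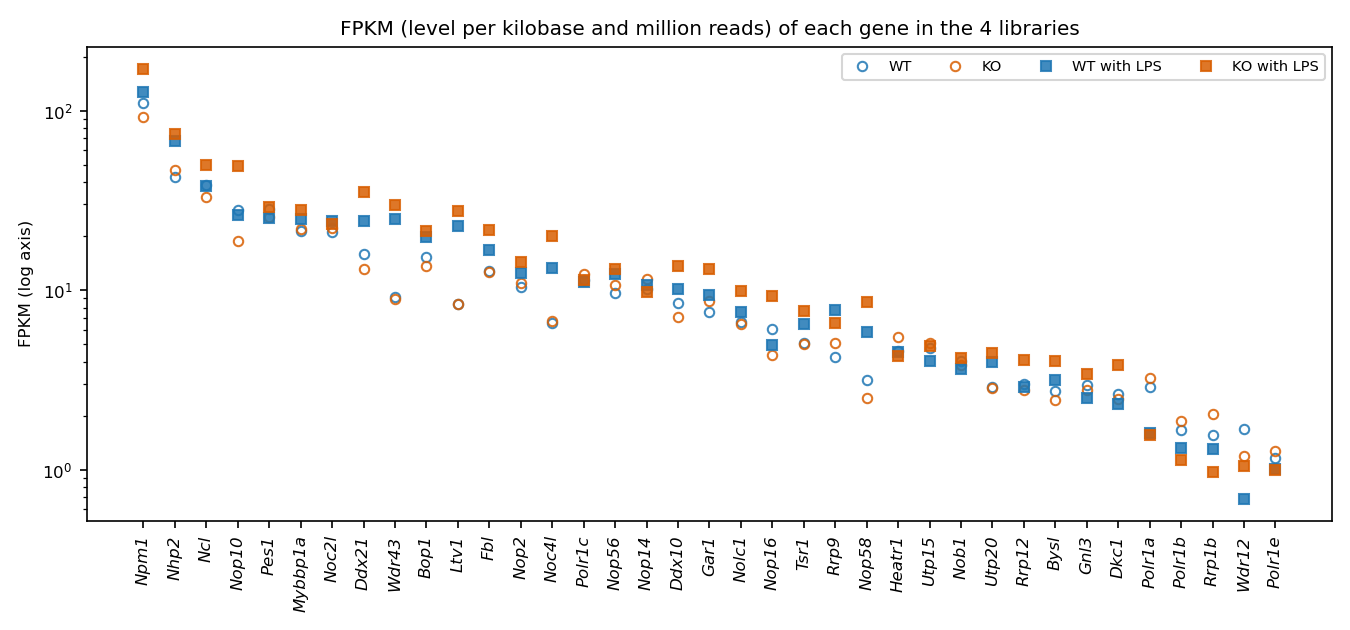
FPKM, the authors' values, of each of the 37 genes in the 4 libraries, ordered by mean level, on a log axis. They are scaled by gene length and by library sizes that follow DESeq2's size factors, not the total counts. Npm1 is highest in every library, and the library titled KO with LPS has the highest value for 26 of the 37 genes.

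Factors of the small subunit gave 3 of the 4 members that rose, out of 13 with a median effect of 0.46 (-0.12 with library totals). Of all genes 9.35% rose, and of 43 further 40S factors 1 did, with a median effect of 0.09. Wdr43 (chr17:71616215-71659031), a processome subunit that acts early in pre-rRNA transcription and processing, had 711, 889, 1472 and 1643 counts. Its 32.2 and 32.1 CPM untreated became 85.7 and 101 CPM with LPS, a ratio of 2.66 (2.43 to 2.91) in WT and 3.13 (2.88 to 3.40) in KO. The common effect was 1.56 ± 0.21 (edgeR adjusted p = 0.015). Ltv1 (chr10:13178140-13193168), an export and assembly factor of the pre-40S particle, had 437, 557, 903 and 1017 counts. That was 19.8 and 20.1 CPM untreated and 52.6 and 62.2 CPM with LPS, a ratio of 2.65 (2.36 to 2.98) in WT and 3.09 (2.78 to 3.43) in KO. Its effect was 1.55 ± 0.21 (edgeR adjusted p = 0.015). In both genes the 2 untreated libraries were nearly equal and the LPS libraries stood clear of them. Noc4l (chr5:110648418-110653417), a processome factor, had 17.5 and 18.0 CPM untreated and 34.3 and 50.5 CPM with LPS. The ratio was 1.96 (1.72 to 2.24) in WT and 2.80 (2.50 to 3.13) in KO, and the effect 1.27 ± 0.24 (edgeR adjusted p = 0.0335), a call lost with library totals at 0.69.

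The other 10 small-subunit factors did not pass. Utp20, a very large processome scaffold, stood at 30.2, 30.2, 40.6 and 44.4 CPM, with an effect of 0.53 ± 0.20 (edgeR adjusted p = 0.148). Rrp9, a U3 snoRNP protein, had 12.7, 15.5, 22.6 and 18.8 CPM with an LPS ratio of 1.77 (1.52 to 2.07) in WT and 1.21 (1.05 to 1.41) in KO. Heatr1, which links rRNA transcription with processing, had 36.6, 44.5, 35.2 and 32.6 CPM. Rrp9, Heatr1 and Nop14 were the small-subunit factors whose LPS ratio was larger in WT than in KO with counting intervals that do not overlap. Among the rest, Nob1 is the endonuclease that makes the last cut of small-subunit rRNA, Bysl and Tsr1 bind late precursors of the 40S subunit, and Rrp12 acts in their export. The remaining effects, for Utp15, Nop14, Nob1, Bysl, Tsr1, Rrp12 and Ddx10, ran from -0.17 to 0.57.

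None of the 9 factors of the 60S subunit passed the test, and their median effect was 0.12. Ddx21, an RNA helicase that also acts in RNA polymerase I and II transcription, came closest with 83.6, 70.0, 126 and 178 CPM and an effect of 1.00 ± 0.28 (edgeR adjusted p = 0.0775). Its ratio was 1.502 (1.41 to 1.60) in WT and 2.55 (2.41 to 2.70) in KO. Bop1, Pes1 and Wdr12 form the PeBoW complex, which is needed for 60S maturation, and the 3 differed from each other. Bop1 stood at 46.2, 42.0, 58.5 and 61.2 CPM and Pes1 at 87.4, 79.9, 75.8 and 85.1 CPM. Wdr12 (chr1:60069785-60098645) had 455, 409, 140 and 199 counts, or 20.6, 14.8, 8.15 and 12.2 CPM. It was 2.53-fold lower with LPS in the WT pair (2.09 to 3.08) and 1.21-fold lower in the KO pair (1.02 to 1.45), with a common effect of -0.77 ± 0.38 (edgeR adjusted p = 0.223). Rrp1b, which binds nucleolar chromatin, had 12.2, 16.4, 10.0 and 7.28 CPM and was 2.25-fold lower in the KO pair (1.83 to 2.78). Noc2l, a transport and assembly factor of the pre-60S particle, stood at 61.6, 66.1, 69.5 and 65.5 CPM. Nop2, a methyltransferase of large-subunit rRNA, and Gnl3, nucleostemin, had effects of 0.30 and -0.0046, and neither passed.

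Within the titles, members reached 2-fold with LPS at shares below or near those of all genes in either pair of libraries under TMM. With library totals, 0 members were higher and 2 lower in the WT pair, beside 9.47% and 33.2% of all genes. With 1 library a side there is no test, and a gene was counted where the TMM-scaled ratio reached 2-fold and the 95% interval of its counts excluded no change. In the WT pair 2 members were higher (Wdr43 and Ltv1) and 1 lower (Wdr12), beside 15.4% and 15.0% of 12326 genes. In the KO pair 6 were higher (Nop58, Nop10, Wdr43, Noc4l, Ltv1 and Ddx21) and 2 lower (Polr1a and Rrp1b), beside 14.6% and 17.8%. The members thus reached 2-fold less often than genes at large, apart from upwards in the KO pair, where 16.2% was near the 14.6% of all genes. The authors' deposited table gave the same counts at its adjusted p under 0.05, 2 and 1 in the WT pair (8.11% of members, beside 18.2% of the genes it lists there) and 6 and 2 in the KO pair (21.6% beside 19.2%).

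Smaller TMM-scaled ratios were more often above 1 than below. The counting interval lay above 1 in both pairs for 17 members (45.9%, beside 27.8% of all genes) and below 1 in both for 4 (10.8% beside 28.4%), namely Polr1a, Polr1b, Wdr12 and Rrp1b. By CPM, both LPS libraries exceeded both untreated ones for 19 members (51.4% beside 34.6%). Both lay under them for 8 (21.6% beside 38.1%). Across the 37 members the log2 ratios of the 2 pairs, which share no library, had a Pearson correlation of 0.71 and a Spearman correlation of 0.66. Over all 12326 genes these were 0.74 and 0.67, values close to those of the members.

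The difference between the titles was under 2-fold for every member, and in several members its sign differed between untreated and LPS libraries. In the additive model 0 of 37 members passed for KO against WT, as did 0% of the 13989 genes by edgeR's quasi-likelihood test, where 39 genes and 0 members had unadjusted p under 0.05. DESeq2 and limma-voom also called 0 genes. These fits estimate a difference common to both treatments, and by the titles the untreated and LPS differences had a Pearson correlation of -0.61 over all genes. Opposite differences average out in the common term and add to its residual spread, so these fits could hardly detect them. The members' median effect of 0.09 stood beside -0.00056 for all genes. In the 2-library comparison without LPS, no member reached 2-fold in either direction, beside 3.16% of genes higher and 2.03% lower in KO. After LPS no member reached it either, beside 3.42% higher and 4.81% lower. The median log2 ratio was -0.0024 untreated, where 8 members had an interval above 1 and 10 had one below, beside 29.5% and 24.0% of all genes. After LPS it was 0.23, and 23 members had an interval above 1 and 2 had one below, beside 26.8% and 28.0% of all genes.

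Of the sign patterns with both counting intervals excluding 1, KO lower untreated and higher after LPS was the most frequent among members. For 9 of 37 (24.3%, beside 14.6% of all genes) the KO library was below WT without LPS and above it with LPS, both counting intervals excluding 1. These were Nop58, Nop10, Ncl, Npm1, Ddx10, Pes1, Wdr12, Nop16 and Ddx21. This count and the correlations that follow rest on the titles of the LPS libraries. The reverse order held for 2 members, Rrp9 and Rrp1b (5.41%, beside 16.2% of all genes), KO was above WT in both treatments for Gar1, and below it in both for 0. Across the 37 members the log2 ratio of KO to WT untreated and that after LPS, which share no library, had a Pearson correlation of -0.82 and a Spearman correlation of -0.77. Over all 12326 genes the values were -0.61 and -0.53. KO with LPS had the highest CPM of the 4 libraries for 24 members (64.9%, beside 26.6% of all genes).

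**Figure D3:**
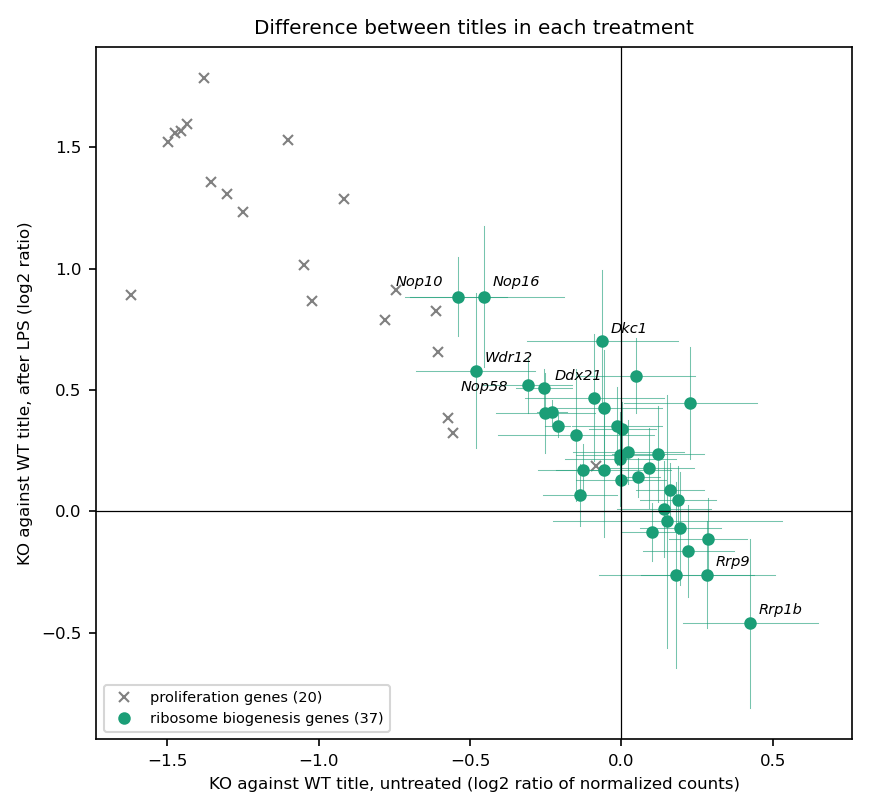
Log2 ratio of the KO to the WT library after LPS (vertical) against the same ratio without LPS (horizontal) for the 37 ribosome biogenesis genes, with 95% intervals of the counts, and for 20 proliferation genes (crosses). The members run from upper left to lower right (Pearson correlation -0.82 over 37 genes), and all 20 proliferation genes lie in the upper left part.

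Nop10 had the largest such difference, 1.45-fold lower in KO than in WT untreated (1.30 to 1.62) and 1.85-fold higher after LPS (1.65 to 2.07). Nop16 (chr13:54584185-54590090), a 60S factor, had 252, 231, 156 and 274 counts, or 11.4, 8.35, 9.08 and 16.8 CPM. It was 1.37-fold lower in KO untreated (1.14 to 1.64) and 1.85-fold higher after LPS (1.51 to 2.26). Its LPS ratio was 1.26-fold lower in the WT pair (1.03 to 1.55) and 2.01-fold higher in the KO pair (1.68 to 2.40). Rrp1b ran the other way, 1.34-fold higher in KO untreated (1.15 to 1.57) and 1.38-fold lower after LPS (1.08 to 1.75).

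Expressed as the difference of the LPS ratios, KO minus WT on the log2 scale, 3 members exceeded 2-fold upwards and 0 downwards, beside 7.76% and 10.3% of 12326 genes. They were Nop10 at 1.42 (1.20 to 1.64), Nop16 at 1.33 (0.94 to 1.71) and Wdr12 at 1.05 (0.69 to 1.42). The member median was 0.22, beside -0.06 for all genes. These intervals cover counting error only, and with 1 library per group the difference has no test.

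Proliferation genes differed between the titles in the same directions as these 9 members. All 20 genes listed, among them Mki67, Top2a and the Mcm helicase genes, were lower in KO than in WT untreated and higher after LPS, with both intervals excluding 1. Their summed level was 1585, 920, 1208 and 1747 CPM in the usual order of libraries, and that of the 37 members 1832, 1732, 2092 and 2561 CPM. Untreated KO was thus the lowest library for both sums and KO with LPS the highest. The untreated gap in the member sum lay mainly in Ncl (401 CPM in WT, 347 in KO) and Npm1 (300 and 256 CPM). Over the 37 members the untreated ratio had no common direction, with 18 above 1 and 19 below (median log2 -0.0024). Cd79b, nearly all of the B-cell list, had 692, 469, 167 and 447 counts. Like the proliferation genes, it was lower in KO untreated and higher in KO after LPS. The B-cell gene Pax5 was at 0 in 3 of the 4 libraries and at 2 counts in untreated KO. Lyz1 was low in untreated WT and in KO with LPS, the libraries with the higher proliferation sum in each treatment. The part of these values in the differences between titles was not tested. In bulk RNA, fewer cells of a type and less RNA per cell cannot be told apart.

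Sums over the roles showed where the RNA lay. In the same order of libraries, box C/D proteins summed to 130, 129, 183 and 230 CPM and box H/ACA proteins to 106, 103, 132 and 173 CPM. The 40S factors summed to 291, 303, 417 and 479 CPM and the 60S factors to 371, 347, 406 and 486 CPM. The scaffold and chaperone proteins, the largest role, summed to 732, 633, 756 and 981 CPM. The RNA polymerase I group stayed between 199 and 217 CPM, the narrowest range of the 6 roles in proportion. Mybbp1a, higher in both LPS libraries, held 127 to 158 CPM of that sum. Each polymerase subunit had lower CPM in both LPS libraries, within counting error for Polr1e and, in the WT pair, for Polr1c. As a share of all raw counts the 37 members made up 0.229%, 0.201%, 0.172% and 0.215%, lower in WT with LPS than in any other library, so that the order of sums depends on the TMM scaling.

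The wider pathway gave few further calls. Of 128 other ribosome biogenesis factors in 4 lists, 127 were tested. Of these 4 rose and 0 fell, beside 9.35% and 5.14% of all genes. Their median effect was 0.09, beside 0.30 for the members. Nol10, a processome factor, rose by 1.18 ± 0.25 (edgeR adjusted p = 0.0415), as the single one of 43 further 40S factors. Gtpbp4, Sdad1 and Eif6 rose among 43 further 60S factors, Gtpbp4 by 1.15 ± 0.22 (edgeR adjusted p = 0.033). Gtpbp4 is a nucleolar GTPase, and Eif6 keeps the 60S subunit from joining the 40S subunit too early. None of 22 factors of rRNA decay and snoRNP assembly passed, with a median of 0.02. Among 11 tested snoRNA host genes without a protein product, Snhg20 fell by 1.61 ± 0.32 (edgeR adjusted p = 0.0349) and 10 did not pass.

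**Figure D4:**
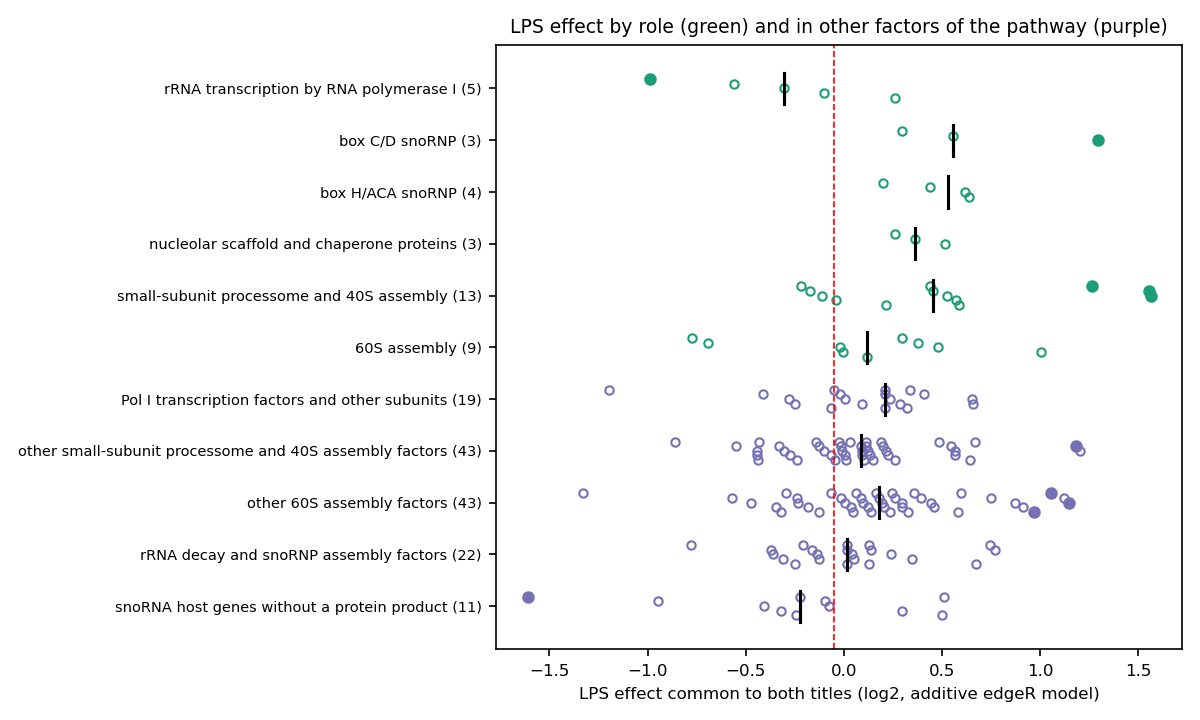
Common effect of LPS (log2, edgeR additive model) for each gene of the 6 roles and of the related gene lists; filled points have adjusted p under 0.05, black bars are list medians, and the red dashed line is the median of all genes, -0.05. Most points of the ribosome lists are open, and the filled ones are mainly on the positive side.

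The MYC network changed in several of its members, while Myc itself did not pass. Myc had 209, 152, 231 and 181 counts, or 9.48, 5.50, 13.5 and 11.1 CPM, with an effect of 0.79 ± 0.33 (edgeR adjusted p = 0.171). By the titles, Myc was higher in WT than in KO in each treatment, and neither difference was tested. The one after LPS, 13.5 against 11.1 CPM, was small and rests on the titles of the LPS libraries. Of 11 tested network genes 4 rose and 2 fell, beside 9.35% and 5.14% of all genes. Mxd1, which competes with MYC for MAX, rose by 2.64 ± 0.26 and Max, the partner of both, by 1.13 ± 0.25 (edgeR adjusted p = 0.0469). Mycl, a MYC paralog, and Mga rose as well. Mnt and Mxd4, also MAX-binding repressors, fell by 2.83 ± 0.22 and 2.73 ± 0.27. Of 17 textbook MYC targets outside the nucleolus, 2 rose, Eif4e and Slc7a5, and 0 fell, with a median of 0.42. The number that rose is near the 9.35% of all genes. Among 13 genes of nucleolar stress and p53 response, Cdkn1a, which encodes the cell-cycle inhibitor p21, rose by 1.84 ± 0.29, while Sesn2 and Phlda3 fell. The same all-gene shares stand beside these calls.

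Some counts may hold reads of a neighbour. Of the 37 members, 14 overlap a protein-coding gene, all on the opposite strand, and no source used here gives the strand setting of the counting. For 8 of them the partner had more counts than the member itself, as in Nop56 beside Idh3b, Dkc1 beside Mpp1 and Bysl beside Ccnd3. None of Wdr43, Ltv1, Nop58, Noc4l and Polr1a overlaps a protein-coding gene. Npm1 and other abundant members have processed pseudogenes, and their values are uncertain to the extent that reads were shared with such copies.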

How the data were processed

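RNA-seq libraries of 4 macrophage cultures were compared, 1 per group, from a table of 54532 genes. The authors deposited whole-number counts per gene and FPKM values, with their own log2 fold changes, p-values and adjusted p-values for 2-library comparisons. Reads were aligned with HISAT2 2.0.5 to mm10, per the submitters' processing notes. How reads were counted, with which strand setting, and which test the authors ran: not given in the sources used here. The table also holds 8 per-sample columns that were not used. Groups follow the titles.

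Counts were fitted with edgeR 4.0.16 in R 4.3.3 (quasi-likelihood, title and treatment as terms, filterByExpr with a minimum count of 10, TMM on the filtered genes). Values after ± are standard errors implied by the F statistic. Genes with adjusted p under 0.05 were called. No group has a replicate, so p-values measure only the scatter around the additive model. CPM and 2-library ratios used TMM factors over all genes with a count, 0.820 to 1.25. For 2-library ratios, called genes had a 2-fold change of log2 CPM (prior count 2), a mean of at least 1 CPM and an exact 95% binomial interval excluding no change; PCR duplicates carry no molecular identifier, so intervals cover counting error only. The interval of a difference of ratios is a Poisson delta-method interval. DESeq2 1.42.0, limma 3.58.1 (voom, and log2 FPKM with a pseudocount of 1), other scalings, other filters and folds, and treatment alone were alternatives. On simulated data with 2-fold changes, the additive fit recovered 74 of 100 changed genes, with 7 false calls among 13989 genes. At 4-fold it recovered 95 of 100. The simulation gave every gene the same dispersion and no difference in LPS response between titles. In the real counts that difference reached 2-fold upwards in 7.76% and downwards in 10.3% of 12326 genes, so these rates need not hold here.

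Named members are those past either rule, those with opposite LPS ratios, and the 2 with the highest mean FPKM in each role; other members are given by role. Members, gene lists, markers and motifs were chosen with earlier results of these data known. Promoters came from RefSeq (GRCm38.p6; 33 of 37 matched) and snoRNAs from GENCODE M21.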

Additional observations from a re-analysis of the deposited data

Results flagged for a closer look

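In 2 members the LPS ratios of the titles had opposite signs with both counting intervals excluding no change, and this difference was not tested, since each group has 1 library. For Ncl the log2 difference of the LPS responses, KO minus WT, was 0.56, from a ratio of 0.963 in WT and 1.42 in KO. For Nop16 it was 1.33, from a level 1.26-fold lower with LPS in WT and 2.01-fold higher in KO. Nop16 rests on 156 to 274 counts per library and Ncl on 6637 to 9597.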

How the results depend on the processing

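Title was a term of the additive model, so its LPS effect was estimated within the titles. No pairing by animal or culture was possible, because each group holds 1 library and the labels carry no replicate numbers. Leaving out a library would leave the additive model with no residual degree of freedom, so no such fit was made. Scaling by library totals reversed the member median of the common LPS effect to -0.28 and that in the WT pair to -0.45, moved the all-gene median by -0.57 in the additive model, -0.61 in the WT pair and -0.47 in the KO pair, and changed the share of calls that were higher from 64.5% to 22.6%, from 50.7% to 22.2% and from 45.0% to 22.6%. For KO against WT untreated that share went from 60.9% to 48.4%. With library totals 2 members rose (Wdr43 and Ltv1) and 3 fell (Polr1a, Heatr1 and Rrp1b) in edgeR. These were 5.41% and 8.11% of members, beside 6.55% and 22.5% of all genes. In the WT pair 0 were higher and 2 lower (5.41%), beside 9.47% and 33.2% of all genes. Treatment alone, which uses no title, gave 7 members that rose (Nop58, Nhp2, Wdr43, Utp20, Noc4l, Ltv1 and Ddx21). Polr1a was lost with DESeq2 and with limma on log2 FPKM, where 0 members fell, and on FPKM ratios 0 members were lower in either pair. Nop58 was lost with limma on log2 FPKM and with library totals, and Noc4l with library totals, while Wdr43 and Ltv1 passed in each of the 7 alternatives run. A 1.5-fold rule gave 7 higher and 2 lower in the WT pair (beside 23.2% and 25.3% of all genes). In the KO pair it gave 11 higher and 3 lower (beside 23.6% and 29.2%). For KO against WT after LPS it gave 3 higher (Dkc1, Nop10 and Nop16, beside 8.26%). For the difference of LPS responses it gave 8 higher and 1 lower. The share of all genes was not computed for this difference at 1.5-fold, so these counts cannot be set against a background. Over all genes edgeR called 2027 for LPS, beside 4485 with treatment alone, 3797 without a filter and 4059 with library totals; for KO against WT it called 2 without a filter. The cause of these changes was not tested beyond what each alternative alters. At 62 to 67 counts in the LPS libraries, Polr1e had the widest intervals of the members.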
